A study of Mus musculus with 40 samples.

Results

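The genes described here encode small cytosolic carriers of fatty acids and of their activated acyl-CoA form. They are *Fabp1*, *Fabp2*, *Fabp3*, *Fabp4*, *Fabp5*, *Fabp7* and *Dbi*, 7 of the 21448 gene symbols on the assay. The choice was made by symbol, with earlier results of these data known. All 7 were found, on 13 of the 30146 probes, and all 7 passed the filter on low counts, *Fabp3* only through the groups at the highest dose. Each gene was read on its most counted probe, and the remaining probes served as a check.

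Livers came from male and female Crl:CD1(ICR) mice, labelled wildtype, that received GenX by oral gavage for 90 days. GenX is the trade name of an ammonium salt of a perfluoroalkyl ether carboxylic acid, and it was dissolved in deionized water. The 8 groups were control (dose 0) and doses of 0.1 mg/kg, 0.5 mg/kg and 5 mg/kg (per day and by body weight) for each sex, with 5 mice each and 1 fixed, paraffin-embedded liver section per mouse. Age was not given in the labels used here. RNA was measured by TempO-Seq, in which pairs of short DNA probes are joined on their target RNA, amplified and sequenced, so that a read names its probe. Mouse 355, from the female 0.5 mg/kg group, had 6711981 reads and was left out by the depth criterion of the study, which leaves 4 mice in that group. The other 39 libraries held 10341341 to 15562253 reads. The counts of a library had a first peak at 20.8 to 49.8 reads. That peak was taken here as an estimate of the reads per captured molecule, although some counts lie below it, and on this estimate a library stood for 287241 to 656745 molecules. Libraries of male mice at 5 mg/kg held 483009 to 656745 molecules and those of control male mice 287241 to 369995, without overlap. Levels are given as CPM, counts relative to the TMM-scaled library size. They are compared between mice and not between genes, because probes differ in how well they capture their target.

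Fatty acid binding proteins hold long-chain fatty acids inside a barrel of strands and carry them between membranes, enzymes and the nucleus. *Fabp1* encodes the liver form, *Fabp2* the intestinal form, *Fabp3* the heart and muscle form, *Fabp4* the adipocyte form, *Fabp5* the epidermal form and *Fabp7* the brain form. *Dbi* encodes the acyl-CoA binding protein, which holds fatty acids after they have been joined to coenzyme A. In rodent liver, several of these genes are known targets of the nuclear receptor PPAR alpha, which fatty acids and many perfluoroalkyl acids activate. That receptor binds DNA together with RXR at a direct repeat of a short hexamer, with 1 base between the copies.

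The most counted probes read genes at separate places in the mouse genome (GRCm38, the build called mm10 in the processing notes of the submitters). *Fabp1* (ENSMUSG00000054422) lies at chr6:71199827-71205023, *Fabp2* (ENSMUSG00000023057) at chr3:122895072-122899506, *Fabp3* (ENSMUSG00000028773) at chr4:130308595-130315463, *Fabp7* (ENSMUSG00000019874) at chr10:57784881-57788450 and *Dbi* (ENSMUSG00000026385) at chr1:120113280-120121078. *Fabp5* (ENSMUSG00000027533), at chr3:10012548-10016607, and *Fabp4* (ENSMUSG00000062515), at chr3:10204088-10208576, lie within 196 kb of each other. All 7 are annotated as protein coding, and *Fabp4* and *Dbi* are on the minus strand.

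The 250 bases before the annotated start were searched on both strands for the direct repeat AGGNCANAGGNCA in the RefSeq promoter table of GRCm38, which held 6 promoters for 5 of the genes (*Fabp1*, *Fabp2*, *Fabp3*, *Fabp7* and *Dbi*). *Fabp1* was the gene with a match, and the stretch is shown because *Fabp1* was the gene called at the middle dose in both sexes. Capitals mark the match, which lies on the opposite strand, 67 to 55 bases before the RefSeq start.
Fabp1, chr6:71199804-71199833, plus strand: acaatcacTGACCTATGGCCTatatctgag
Of 32851 promoters of the same length in the table, 0.338% held this repeat. The single hexamer AGGTCA, which can be part of the repeat, was in the promoters of *Fabp1* and *Fabp7* and in 14% of all promoters. These matches describe the letters in the window and are not evidence of binding.

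Hepatocyte markers were checked first. All 6 (*Alb*, *Ttr*, *Ahsg*, *Cps1*, *Ass1* and *Tat*) had reads in every group. Their summed level was 14175 to 17419 CPM in control male mice, 10434 to 12363 CPM at 0.5 mg/kg and 8834 to 10712 CPM at 5 mg/kg, with both treated groups below all controls. In female mice it was 15559 to 18359 CPM in the controls, 15051 to 19155 CPM at 0.5 mg/kg and 10799 to 13240 CPM at 5 mg/kg, and the highest dose alone lay below all controls. *Ass1* and *Ahsg* were called lower in male mice at 0.5 mg/kg, and *Ass1*, *Cps1* and *Ahsg* in both sexes at 5 mg/kg. *Alb* and *Ttr* were not called, with changes of -0.07 ± 0.11 and -0.16 ± 0.13 in male and -0.22 ± 0.11 and -0.10 ± 0.13 in female mice at 5 mg/kg. *Tat* was not called either. The median log2 change over the 6 at 5 mg/kg was -0.96 in male and -0.95 in female mice. The part of these marker changes in the results that follow was not tested, and in bulk tissue fewer cells of a type and less RNA per cell cannot be told apart. The Y-linked genes on the assay had reads in 20 of 20 libraries labelled male and in 0 of 20 labelled female.

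*Fabp1* rose with dose in both sexes. In control male mice its probe was at 4589, 4766, 4958, 5040 and 5197 CPM. At 0.5 mg/kg the male mice were at 9555, 10685, 10918, 11653 and 11744 CPM, and at 5 mg/kg at 14530, 16222, 17697, 17808 and 18227 CPM. No mouse of one of these groups reached into the range of another. The change over controls was 1.15 ± 0.15 on the log2 scale (SE, n = 5 and 5) at 0.5 mg/kg, or 2.22-fold (edgeR adjusted p = 2.80e-07), and 1.78 ± 0.15 at 5 mg/kg, or 3.44-fold (adjusted p = 3.04e-13). The step from 0.5 to 5 mg/kg was 0.63 ± 0.14 (adjusted p = 0.00609). At 0.1 mg/kg the male mice were at 5281, 6064, 6323, 6471 and 7040 CPM. All 5 lay above all 5 controls, but the change of 0.34 ± 0.14 did not pass the test over all probes (adjusted p = 0.350).

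Control female mice had less *Fabp1* RNA than control male mice, at 2217, 2924, 3486, 3655 and 3930 CPM. The difference was -0.60 ± 0.14 (female minus male, adjusted p = 0.00971), and the 2 sets of controls did not overlap. At 0.5 mg/kg the 4 female mice were at 4698, 4719, 6108 and 6814 CPM, and at 5 mg/kg the 5 were at 9879, 10144, 11570, 11604 and 13860 CPM. All of them exceeded all female controls, by 0.78 ± 0.15 (1.72-fold, adjusted p = 0.00428) and 1.82 ± 0.15 (3.52-fold, adjusted p = 2.52e-13). The step from 0.5 to 5 mg/kg was 1.03 ± 0.16 (adjusted p = 2.60e-05). At 0.1 mg/kg the female mice were at 1791 to 4433 CPM, across the whole range of their controls. In a fit of only the groups compared, the call of female mice at 0.5 mg/kg was lost (adjusted p = 0.132).

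As a share of the library, the *Fabp1* probe took 0.478% ± 0.036 of all reads in control male mice and 1.80% ± 0.16 at 5 mg/kg (SD, n = 5). In female mice the shares were 0.324% ± 0.072 and 1.20% ± 0.16 (SD, n = 5). At 5 mg/kg the responses of the sexes differed by 0.03 on the log2 scale (female minus male, 95% interval -0.38 to 0.44), which leaves room for a difference of that size in either direction.

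*Dbi*, the acyl-CoA binding protein, rose in the same groups except female mice at 0.5 mg/kg. Control male mice were at 308, 366, 379, 399 and 415 CPM, those at 0.5 mg/kg at 545, 569, 604, 657 and 693 CPM, and those at 5 mg/kg at 796, 906, 939, 984 and 984 CPM. These groups did not overlap. The changes were 0.72 ± 0.13 (1.64-fold, adjusted p = 0.000339) and 1.30 ± 0.13 (2.47-fold, adjusted p = 6.68e-11), and the step between the doses was 0.59 ± 0.13 (adjusted p = 0.00342). Control female mice were at 265, 312, 346, 365 and 398 CPM, and those at 5 mg/kg at 706, 732, 784, 859 and 913 CPM. The change was 1.24 ± 0.13 (2.37-fold, adjusted p = 4.36e-10). At 0.5 mg/kg the 4 female mice, at 401, 433, 468 and 539.7 CPM, lay just above all controls. Their change of 0.45 ± 0.13 did not pass (adjusted p = 0.311), although DESeq2 called it (adjusted p = 0.0309), as did edgeR on captured molecules (adjusted p = 0.0711). The step from 0.5 to 5 mg/kg in female mice was 0.80 ± 0.14 (adjusted p = 0.000202). The sexes differed by -0.06 at 5 mg/kg (95% interval -0.42 to 0.30).

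*Fabp2*, the form best known from the lining of the small intestine, was read in every liver library. Control male mice were at 264, 269, 296, 296 and 309 CPM. Those at 0.5 mg/kg were at 470.2, 478, 526, 624 and 726 CPM, and those at 5 mg/kg at 588, 629.8, 717, 763 and 866 CPM. Both treated groups lay above all controls and overlapped each other. The changes were 0.98 ± 0.22 (1.97-fold, adjusted p = 0.00767) and 1.31 ± 0.22 (2.48-fold, adjusted p = 2.58e-05). Female mice were more scattered, with controls at 191, 293, 320.1, 347 and 439 CPM and mice at 5 mg/kg at 385, 588, 816, 844 and 938 CPM. A treated mouse, at 385 CPM, lay among the controls, and the change was 1.17 ± 0.22 (2.25-fold, adjusted p = 0.000382). At 0.5 mg/kg the change in female mice was 0.57 ± 0.23 (adjusted p = 0.485). Of 4 enterocyte markers, *Sis*, *Lct* and *Alpi* had no read in male mice of the control or the 5 mg/kg group, and the summed level of the 4 was 0 to 4.69 CPM in the controls and 0.0710 to 4.73 CPM at 5 mg/kg. In female mice the sums were 0 to 19.4 CPM in the controls, where *Lct* was read, and 0 to 5.42 CPM at 5 mg/kg.

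**Figure D1:**
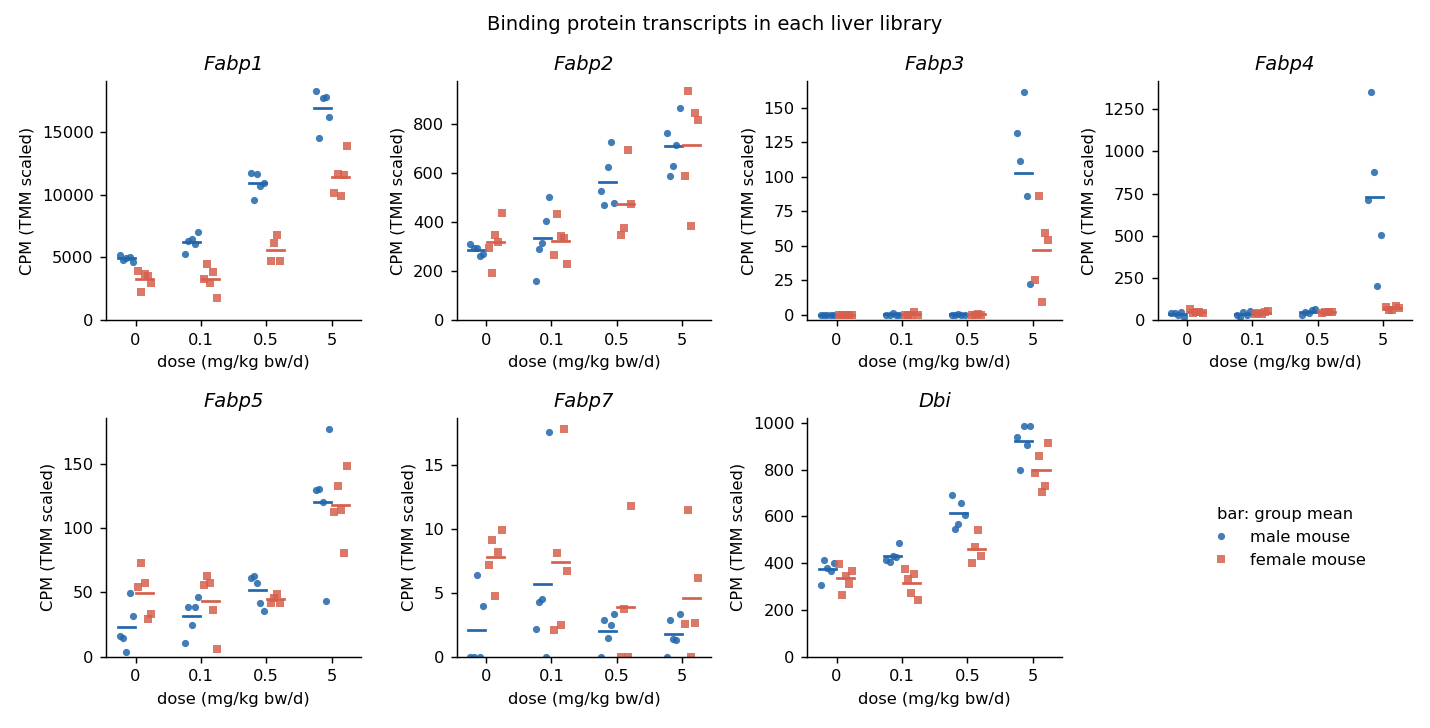
Level of each gene in each of the 39 libraries, as TMM-scaled CPM on linear axes, by daily dose (mg/kg). Circles are male mice, squares are female mice, bars are group means, and each panel has its own scale. Group means of Fabp1, Fabp2 and Dbi climbed over 0.5 and 5 mg/kg, although the step between these doses was not called for Fabp2. Fabp3 stood above 1.75 CPM at 5 mg/kg only, and Fabp4 stood high in male mice at 5 mg/kg only (201 to 1350 CPM).

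*Fabp3*, the heart and muscle form, went from no reads to a clear signal at the top dose. None of the 10 control mice had a read on its probe. At 5 mg/kg the male mice were at 22.5, 86.0, 112, 132 and 162 CPM, from 320 to 2118 reads or 15 to 84 captured molecules. The female mice were at 9.40, 25.1, 54.3, 59.5 and 86.1 CPM, from 118 to 1207 reads or 3 to 30 molecules. In each sex all 5 mice exceeded all controls (edgeR adjusted p = 8.31e-08 in male and 8.75e-07 in female mice). The probe passed the filter on low counts only through these treated groups, where it was high. The p values therefore describe the fit and are no separate support for the rise. At 0.1 and 0.5 mg/kg, 1 mouse of each sex and dose had 6 to 25 reads, which rounds to 0 or 1 molecule on that estimate, and the other mice had none.

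The size of the *Fabp3* response is known only as a lower bound. A count of 0 allows up to 3 captured molecules per library, which came to 8.52 to 10.4 CPM in control male mice and 5.94 to 9.94 CPM in control female mice, for counting error only. Against the highest of these floors in the same sex, the mean of 102.8 ± 52.7 CPM in male mice (SD, n = 5) was at least 9.91-fold higher, and the mean of 46.9 ± 30.1 CPM in female mice (SD, n = 5) at least 4.72-fold higher. The lowest female mouse, at 9.40 CPM, lay under that floor. Captured molecules were higher in male mice at 5 mg/kg than in their controls, as given above, and the part of depth in the *Fabp3* result was not tested. In female mice the captured molecules of the 2 groups overlapped, at 306231 to 339820 under treatment and 307765 to 521441 in the controls. Of 5 striated muscle markers, *Ckm*, *Mb*, *Myh6* and *Myh7* had no read in either sex at 5 mg/kg, and the summed level of the 5 was 4.4 to 21.4 CPM in male mice at that dose and 0 to 17.1 CPM in their controls.

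*Fabp4* rose in male mice at the top dose, and its response there differed between the sexes. This gene is known from adipocytes, macrophages and capillary endothelium. Control male mice were at 16.8, 28.2, 39.1, 39.8 and 47.9 CPM, and male mice at 5 mg/kg at 201, 505, 709, 880.0 and 1350 CPM. The lowest treated mouse was above the highest control, and the change was 4.41 ± 0.33 (21.2-fold, adjusted p = 5.68e-15). Male mice at 0.1 and 0.5 mg/kg stayed at 16.2 to 65.3 CPM, and the step from 0.5 to 5 mg/kg was 3.92 ± 0.32 (adjusted p = 7.21e-13). Control female mice were at 40.1, 44.2, 46.2, 49.9 and 64.5 CPM, and those at 5 mg/kg at 59.1, 59.5, 71.3, 75.2 and 86.5 CPM. The female groups overlapped, and the change was 0.52 ± 0.29 (95% interval -0.05 to 1.09, adjusted p = 0.369). The difference between the responses was -3.89 (female minus male, 95% interval -4.72 to -3.05, adjusted p = 1.85e-08), and 1 other probe of the 17877 had a smaller p in that test. Leaving out any single mouse kept this difference between -4.13 and -3.52.

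Male mice at the top dose were widely spread for *Fabp4* and *Fabp3*. Their coefficient of variation for *Fabp4* was 58.9%, and it was 51.3% for *Fabp3*, against 9.02% for *Fabp1* and 8.43% for *Dbi* in the same 5 livers. Such spread was not particular to them, at 64.3% for *Fabp3* in female mice at 5 mg/kg and 35.1% for *Fabp4* in control male mice. The *Fabp4* mouse at 201 CPM, number 404, also had the lowest *Fabp5* level of its group. The mouse at 505 CPM, number 405, had the highest *Fabp5* and the lowest *Fabp3* level. The mouse at 1350 CPM, number 402, had the lowest *Fabp1*, *Fabp2* and *Dbi* levels.

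A second *Fabp4* probe read far fewer molecules and showed the same separation. In male mice at 5 mg/kg it was at 13.2, 27, 39.4, 47.6 and 78.0 CPM, and control male mice were at 0 to 8.60 CPM. The groups did not overlap, but the change of 3.69 ± 1.38 did not pass the test (adjusted p = 0.116). Female mice at 5 mg/kg were at 1.81 to 9.20 CPM and their controls at 0 to 7.51 CPM.

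**Figure D2:**
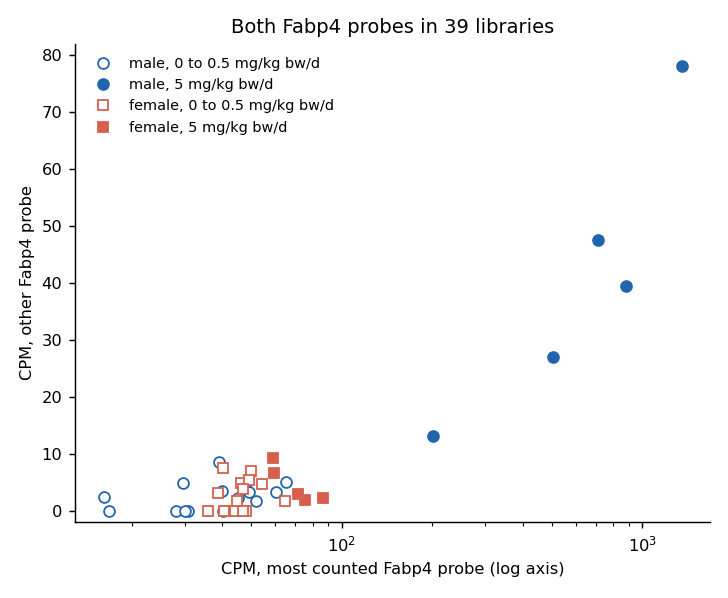
Level of the most counted Fabp4 probe (horizontal, CPM on a log axis) against the other Fabp4 probe (vertical, CPM) in 39 libraries; circles are male and squares female mice, filled at 5 mg/kg. The 5 male mice at that dose stand apart on both probes, at 201 to 1350 CPM and 13.2 to 78.0 CPM.

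Markers of the cell types in which *Fabp4* is best known were read in the same mice. Of 7 adipocyte markers, *Adipoq*, *Plin1*, *Retn* and *Cfd* had no read in male mice at 5 mg/kg. *Lep* and *Lipe* were read in 1 of these mice each, and *Adrb3* in all 5, at 1.90 to 19.4 CPM. The summed level of the 7 was 1.90 to 20.7 CPM at that dose and 0 to 20.7 CPM in control male mice. The summed level of 8 Kupffer cell and macrophage markers was 46.6 to 68.2 CPM against 49.0 to 109 CPM in the controls, with *Timd4* and *Marco* at 0 at the top dose. That of 7 endothelial markers was 145 to 232 CPM against 202 to 260 CPM in the controls, with *Lyve1* at 0. Only 2 of the 7 adipocyte markers passed the filter on low counts, so their sum could show little. The part of these cell types in the *Fabp4* level was not tested.

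**Figure D3:**
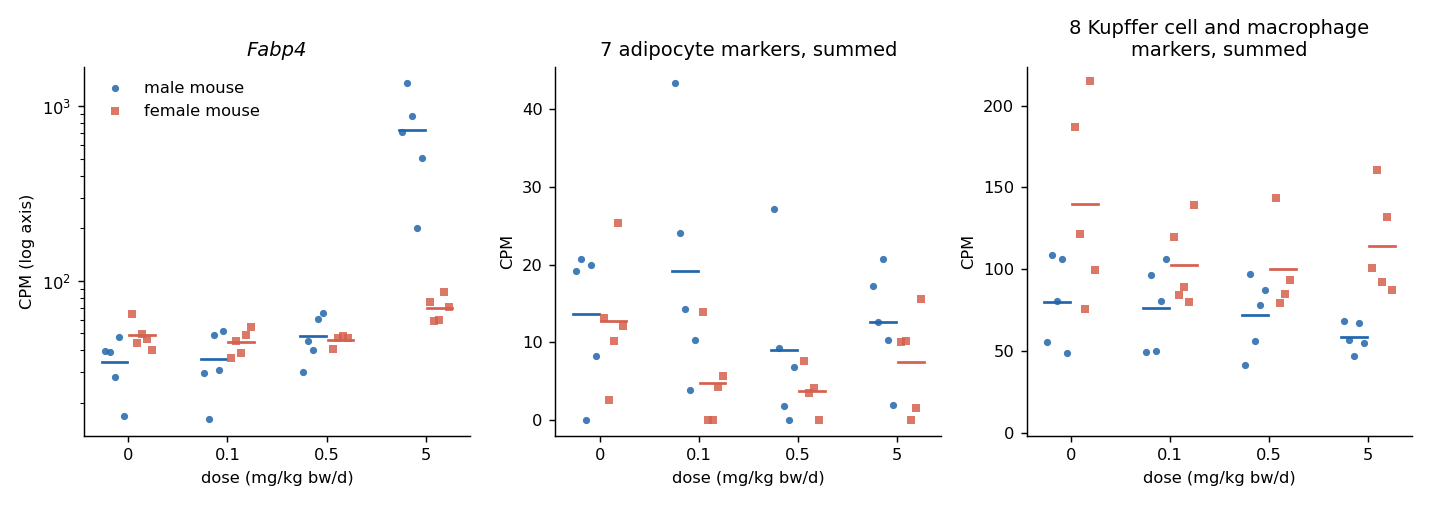
Fabp4 (CPM, log axis) and the summed CPM of 7 adipocyte and of 8 Kupffer cell and macrophage markers (linear axes) in each of 39 libraries, by daily dose (mg/kg). Circles are male mice, squares female mice and bars group means; at 5 mg/kg male mice held 201 to 1350 CPM of Fabp4 with marker sums of 1.90 to 20.7 and 46.6 to 68.2 CPM.

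*Fabp5*, the epidermal form, was read at low levels and rose at the top dose in male mice. Control male mice were at 3.67, 15, 16.5, 32 and 49.2 CPM, and those at 5 mg/kg at 43.7, 120.2, 129.9, 131 and 177 CPM. A treated mouse, at 43.7 CPM, lay within the range of the controls, and the change was 2.37 ± 0.43 (5.17-fold, adjusted p = 9.02e-05). Control female mice were at 29.4, 33.2, 53.9, 57.6 and 73.3 CPM, and those at 5 mg/kg at 80.7, 112, 114, 133 and 149 CPM. All 5 female mice exceeded all controls, but the change of 1.25 ± 0.42 did not pass (adjusted p = 0.114). It passed without the filter on low counts (adjusted p = 0.00503), on captured molecules (adjusted p = 0.00681) and in a fit of only the groups compared (adjusted p = 0.00915). The group means at 5 mg/kg were close, at 120.4 ± 48.2 CPM in male and 117.7 ± 25.5 CPM in female mice (SD, n = 5), while those of the controls were 23.3 ± 17.7 and 49.5 ± 18.2 CPM. The difference between the responses was -1.12 (female minus male, 95% interval -2.30 to 0.06, adjusted p = 0.425), and that between the controls was 1.09 ± 0.42 (adjusted p = 0.211). At 0.5 mg/kg male mice were at 35.3 to 62.8 CPM, a change of 1.15 ± 0.42 (adjusted p = 0.203), and the 4 female mice at 41.7 to 48.9 CPM. The other *Fabp5* and *Dbi* probes had at most 3 captured molecules in any library, too few to check the most counted ones. *Fabp5* and *Dbi* have processed copies elsewhere in the genome, and whether the probes also capture them was not tested.

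*Fabp7*, the brain form, was close to the limit of detection and was not called in any comparison. Its most counted probe had 0 to 254 reads, or 0 to 8 captured molecules, in any of the 39 libraries. Control male mice were at 0, 0, 0, 3.97 and 6.40 CPM, and male mice at 5 mg/kg at 0, 1.28, 1.37, 2.85 and 3.31 CPM. Control female mice were at 4.78 to 9.90 CPM and those at 5 mg/kg at 0 to 11.5 CPM. A change was not detectable at this depth. The summed level of 4 neural and glial markers was 0 to 5.61 CPM in any of the 8 groups, and that of 4 cholangiocyte markers 0 to 11.2 CPM. Of its other 3 probes, 1 had no read in any library.

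**Figure D4:**
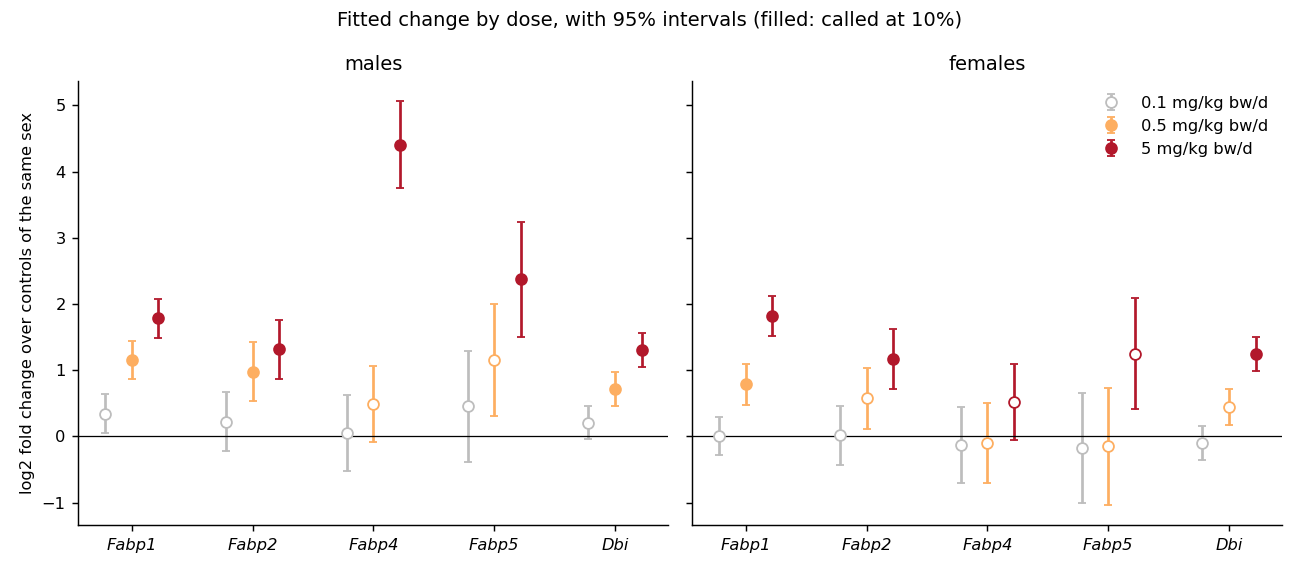
Fitted log2 fold change over control mice of the same sex at each dose, with 95% intervals, for the 5 genes read in every library (males left, females right). Filled points passed the 10% threshold; Fabp1 and Dbi reached 1.78 and 1.30 in male and 1.82 and 1.24 in female mice at 5 mg/kg, and Fabp4 reached 4.41 and 0.52.

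Counted over the 7 genes, no gene was called in either sex at 0.1 mg/kg by edgeR or by DESeq2. There 0.0336% and 0% of all tested probes were called in male and female mice. Unadjusted p values were below 0.05 for 2 of the 7 genes in male and 1 in female mice, and for 2435 and 1843 of the 17877 probes. The genes were *Fabp1* and *Fabp3* in male and *Fabp3* in female mice. Reads of *Fabp3* came there from 1 male mouse (17 reads) and 1 female mouse (25 reads). At 0.5 mg/kg, 3 of 7 genes were higher in male mice (*Fabp1*, *Fabp2* and *Dbi*), where 2.38% of all probes were called in either direction. In female mice 1 of 7 was higher (*Fabp1*), where 0.213% of all probes were called. At 5 mg/kg, 6 of 7 were higher in male mice (all but *Fabp7*) with 8.28% of all probes called, and 4 of 7 in female mice (*Fabp1*, *Fabp2*, *Fabp3* and *Dbi*) with 3.66% of all probes called. *Fabp3* is in both counts, and in the medians below, although it passed the filter only through these groups, where it was high. No gene of the 7 was called lower at any dose. This could not occur for *Fabp3*, which had no reads in the controls and passed the filter on low counts only through the 5 mg/kg groups. *Fabp7* was close to the limit of detection. The median log2 change over the 7 was 1.78 in male and 1.24 in female mice at 5 mg/kg, and that of all tested probes was 0.10 and -0.01. The comparisons of the doses with controls share their control mice. With the library of mouse 355 added to the fit, 0 of 7 genes were called at 0.5 mg/kg in either sex. Calls over all probes fell as well, to 91 of 17247 in male and 8 in female mice. Without that library they were 425 and 38 of 17877.

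The step from 0.5 to 5 mg/kg was called for 4 of 7 genes in male mice (*Fabp1*, *Fabp3*, *Fabp4* and *Dbi*), with 2.64% of all probes called. In female mice it was called for 3 of 7 (*Fabp1*, *Fabp3* and *Dbi*), with 1.23% of all probes called. The calls of *Fabp3* are no support, because its probe passed the filter on low counts only through the 5 mg/kg groups. For *Fabp2* the step was 0.34 ± 0.22 in male (adjusted p = 0.622) and 0.59 ± 0.24 in female mice (adjusted p = 0.355). The responses of the sexes differed for none of the 7 genes at 0.1 mg/kg or at 0.5 mg/kg, by edgeR or DESeq2, with 0 genes and 1 gene at an unadjusted p below 0.05, beside 1504 and 1951 of 17877 probes, and 0% and 0.274% of all probes called. At 5 mg/kg they differed for 1 (*Fabp4*), with 1.04% of all probes called. Control female and male mice differed for 1 of 7 (*Fabp1*, lower in females), with 3.49% of all probes called. *Fabp3* had no reads in either control group, so none of these comparisons between the sexes could be decided for it.

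Other proteins are related to these carriers by fold or by an acyl-CoA binding domain. Of 19 such genes listed, 17 are on the assay and 10 were tested. In male mice *Eci2*, a fatty acid oxidation enzyme with an acyl-CoA binding domain, rose by 1.17 ± 0.17 at 0.5 mg/kg and by 1.36 ± 0.17 at 5 mg/kg (adjusted p = 8.99e-06 and 5.11e-08). *Hsdl2*, a peroxisomal protein with a sterol carrier domain, rose by 1.22 ± 0.28 and 1.99 ± 0.29 (adjusted p = 0.00923 and 1.09e-06). No other gene of the list was called by edgeR in male mice against controls, although DESeq2 called 1 more, lower, at 5 mg/kg, and none was called at 0.1 mg/kg in either sex by edgeR or DESeq2, with 2 genes in male and 0 in female mice at an unadjusted p below 0.05, beside 2435 and 1843 of 17877 probes. In female mice at 5 mg/kg *Eci2* rose by 1.12 ± 0.17, *Hsdl2* by 1.73 ± 0.28 and *Scp2*, the sterol carrier protein, by 0.39 ± 0.10 (adjusted p = 7.60e-06, 3.31e-05 and 0.0177). The change of *Scp2* in male mice was -0.24 ± 0.10 (adjusted p = 0.176), and its responses in females and males were 0.63 ± 0.14 apart (adjusted p = 0.0181). *Scp2* was lower in control females than in control males (-0.83 ± 0.10, adjusted p = 1.35e-07). The medians over the 10 genes at 5 mg/kg were 0.12 in male and 0.70 in female mice.

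The next list held enzymes and carriers that take up, activate and oxidise fatty acids. Of its 23 genes, all tested, 13 were higher in male mice at 0.5 mg/kg and 18 at 5 mg/kg, where 1 was lower. In female mice 7 and 17 were higher and 1 was lower at 5 mg/kg. Of all probes, 2.38% and 8.28% were called in male and 0.213% and 3.66% in female mice, in either direction. The medians over the 23 genes were 1.11 and 1.68 in male and 0.57 and 1.34 in female mice at these doses. The smallest p values at 5 mg/kg in male mice belonged to *Ehhadh*, the peroxisomal bifunctional enzyme (5.69 ± 0.20), *Acot1*, an acyl-CoA thioesterase (4.79 ± 0.29), *Acadl*, the long-chain acyl-CoA dehydrogenase (2.33 ± 0.15), and *Cyp4a10*, a fatty acid hydroxylase (5.99 ± 0.42). In female mice they belonged to *Ehhadh* (4.96 ± 0.19), *Acot1* (4.25 ± 0.28), *Acsl1*, an acyl-CoA synthetase (1.34 ± 0.11), and *Acadm*, the medium-chain acyl-CoA dehydrogenase (1.49 ± 0.14). The lower gene in both sexes was *Slc27a5*, a bile acid and fatty acid acyl-CoA ligase, at -0.66 ± 0.15 in male (adjusted p = 0.00220) and -0.47 ± 0.15 in female mice (adjusted p = 0.0919), named after its values had been seen. *Acadl* and *Cyp4a10* were higher in control females than in control males, by 0.58 ± 0.15 and 2.05 ± 0.35 (adjusted p = 0.0153 and 0.000109). At 5 mg/kg the response was smaller in females than in males for 3 of the 23, *Acadl* (-0.82 ± 0.21, adjusted p = 0.0427), *Cyp4a10* (-1.95 ± 0.48, adjusted p = 0.0396) and *Plin2*, a lipid droplet coat protein (-1.03 ± 0.26, adjusted p = 0.0406). At 0.1 mg/kg no gene of the list was called by edgeR in either sex, with 10 genes in male and 1 in female mice at an unadjusted p below 0.05, beside 2435 and 1843 of all 17877 probes. DESeq2 called 3 higher in male and none in female mice there, beside 274 of 18877 and 166 of 20188 probes.

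Of 5 nuclear receptors, none was called higher at any dose. *Hnf4a*, a receptor that maintains hepatocyte gene expression, was lower at 5 mg/kg in male mice by -0.80 ± 0.16 (adjusted p = 0.000497) and in female mice by -0.56 ± 0.16 (adjusted p = 0.0439). *Rxra*, the partner of the PPARs, was lower in male mice at that dose (-0.35 ± 0.12, adjusted p = 0.0821). *Ppara* was not called at any dose, with -0.48 ± 0.28 in male (adjusted p = 0.353) and 0.35 ± 0.28 in female mice (adjusted p = 0.786) at 5 mg/kg. *Pparg*, the receptor of adipocyte differentiation, had reads in 5 of 5 male mice at 5 mg/kg, at 1.85 to 12.3 CPM, and in 1 of 5 control male mice, at 3.52 CPM. It was not called (adjusted p = 0.694).

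The genes whose pattern over the 39 libraries was most like each binding protein were found by Pearson's r of log2 CPM among 12411 other genes. These libraries share doses and sexes, so the values describe a shared dose pattern and carry no p. *Fabp1* was most like *Acsl1* (r = 0.955) and *Dbi* (r = 0.954), and *Dbi* most like *Fabp1* (r = 0.954) and *Ehhadh* (r = 0.947). *Fabp2* was most like *Hadha* (r = 0.841) and *Ehhadh* (r = 0.838). *Fabp3* was most like *Ucp3*, an uncoupling protein of muscle mitochondria (r = 0.950), and *Aqp3*, a water and glycerol channel (r = 0.924). *Fabp4* was most like *Cidea*, a lipid droplet protein (r = 0.929), and *Cxcr1* (r = 0.862). The closest genes were less alike for *Fabp5* (*Rpl21*, r = 0.770, and *Kdsr*, r = 0.734) and for *Fabp7* (*Dcaf11*, r = 0.600, and *Sel1l*, r = 0.595).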

How the data were processed

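Per the labels and the methods of the study, RNA from 40 scraped liver sections was measured by TempO-Seq and sequenced on an Illumina instrument. The processing notes of the submitters name bcl2fastq 2.17.1.14, Bowtie and mm10. The authors deposited raw read counts per probe, without normalization or pooling.

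Counts were tested in R 4.3.3 with edgeR 4.0.16: the default filter on low counts (17877 probes kept), TMM scaling, 1 coefficient for each of 8 groups, and the quasi-likelihood F-test on the 39 libraries kept. P values are two-sided, adjusted by Benjamini and Hochberg over all probes tested, with a threshold of 10%. The SE was derived from the F statistic, and 95% intervals from the SE. The depth criterion was a total more than 2 SD below the mean. Captured molecules are counts divided by the first peak of the smoothed histogram of a library's counts. Floors and intervals cover counting error or the spread between these mice. Likeness used log2 CPM with a prior count of 2.

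Named genes were the 7 members, the genes with the smallest p in 3 fixed lists, marker genes of 8 cell types and the 2 genes most like each member. The members and lists were chosen with earlier results of these data known. The alternatives were DESeq2 1.42.0, edgeR with its size factors, edgeR without the filter, a fit with mouse 355, a fit restricted to the groups compared, probe counts added up per symbol, captured molecules, other probes, and leaving out each mouse. The count test and the peak finder were tested on simulated data. Promoter sequences are from RefSeq on GRCm38 and gene positions from GENCODE on the same build.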

Additional observations from a re-analysis of the deposited data

Results flagged for a closer look

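The response of *Fabp4* at 5 mg/kg differed between the sexes, by -3.89 on the log2 scale (female minus male, edgeR adjusted p = 1.85e-08).

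*Fabp7* in a male mouse at 0.1 mg/kg, at 17.6 CPM with the next mouse at 4.53 CPM, stood apart from its group on a test for a gap at the end of the range, which chance alone passes in about 1 in 20 groups. *Fabp3* was read in 1 mouse of each group at the lower doses, at 1.43 CPM (17 reads) in a male and 1.75 CPM (25 reads) in a female at 0.1 mg/kg, and at 0.484 CPM (6 reads) in a male and 0.576 CPM (7 reads) in a female at 0.5 mg/kg. With every other mouse at 0, that test passes whatever the count, so it says nothing about these 4.

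The library of mouse 355, which entered no comparison, held *Fabp4* at 672 CPM (5531 reads), above the 40.4 to 64.0 CPM of control female mice scaled with it. Its *Fabp1* level was 45.2 CPM, against 2241 to 3895 CPM in those controls. In the same library the summed hepatocyte markers were at 3382 CPM, against 8933 to 20713 CPM in the other 39 libraries. The Kupffer cell and macrophage markers were at 494 CPM against 41.9 to 219, the endothelial markers at 447 CPM against 147 to 322, and the adipocyte markers at 0. Their part in its *Fabp4* level was not tested.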

How the results depend on the processing

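Of the 23 calls of a gene in a comparison, all 23 kept their direction and passed under DESeq2, edgeR with DESeq2 size factors, edgeR without the filter, captured molecules and probe counts added up per symbol, and without any single mouse. With all 40 libraries 9 of them no longer passed, and in a fit of only the groups compared 1, *Fabp1* in female mice at 0.5 mg/kg. With all 40 libraries the number of the 7 genes called became 0 in male mice and 0 in female mice at 0.5 mg/kg, 2 for the dose step in male mice and 0 between control females and males, and the *Fabp4* dose step in female mice turned to -1.27. Over all probes, that fit called 91, 8, 143 and 230 of 17247 in the same order of comparisons. The fit of 39 libraries called 425, 38, 472 and 624 of 17877. In female mice at 0.5 mg/kg the number of the 7 genes called was 2 under DESeq2 and 2 on captured molecules. It was 0 in a fit of only the groups compared. Of all probes, those fits called 302 of 19309, 100 of 5325 and 22 of 13528 there. Without the filter on low counts the number was 1 in female mice at 0.1 mg/kg (*Fabp3*) and 2 between the controls. Of 23058 probes, 15 and 689 were called in these comparisons. Leaving out single mice gave 1 to 2 calls between the controls, 2 without male control mouse 104 (*Fabp5* and *Fabp1*).

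The near-zero sex differences at 5 mg/kg changed sign: without single mice, *Fabp1* ranged from -0.0634 to 0.11, *Fabp2* from -0.27 to 0.0117 and *Dbi* from -0.12 to 0.00656, and *Dbi* was 0.0331 under DESeq2, 0.0333 with its size factors and 0.0464 on captured molecules. On the other probes, with few reads, none of the 9 calls that could be tested passed. They turned *Fabp4* in males at 0.5 mg/kg to -0.58, *Fabp5* to -0.17 there and to -5.48 in females at 5 mg/kg, and *Dbi* to -1.62 in females at 0.5 mg/kg and -0.77 for the dose step in males. The causes were not tested. No paired analysis was possible because the animal numbers are unique to each mouse. Captured molecules limit *Fabp3* and *Fabp7*.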
